A study of Mus musculus with 23 samples.

Results

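Gastrocnemius muscle of old sedentary mice was compared with that of adult sedentary mice, on 8 of the 23 arrays of a treadmill training series. The 8 arrays were chosen by their labels alone: 4 of old controls and 4 of adult controls. All mice were male C57BL/6J without a transgene named in the labels. They came from an ageing colony, entered the study at 24 months (old) or 5 months (adult), and are labelled 25 and 6 months old. Both control groups lived in single cages on standard chow and for 4 weeks were taken each day to the training room, where the treadmill was left off. The muscle was frozen after 12 h of rest, and 200 ng of its total RNA was labelled with Cy3 for a 1-colour Agilent array. The trained mice, used below for comparison, ran by high-intensity intermittent training (HIIT, 4 old and 4 adult arrays) or moderate-intensity continuous training (MICT, 4 old and 3 adult arrays). The labels assign 9 mice to each group and do not say that every array is another mouse. The p-values of genes therefore measure the spread between arrays, which may be technical in part. Unless stated otherwise, this spread was pooled within the groups of all 23 arrays. All 4 old control arrays lay on slide 2 and all 4 adult control arrays on slide 1, so that age and slide cannot be told apart in this comparison.

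The gastrocnemius is a calf muscle of mostly fast-twitch fibres. In such fibres a nerve impulse opens the calcium store, calcium starts the sliding of myosin along actin, and glycolysis and mitochondria supply the ATP. With age, muscle of mice and humans is known to lose mass and strength, to lose and regain nerve contacts, and to gather fat and immune cells between its fibres.

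Values are log2 processed signals minus the array's 75th percentile, so that 0 stands for that percentile, and differences are old minus adult on this scale with limma's standard error (SE). The signal of 1 probe is not set against that of another. Between 47.2% and 53.4% of the spots of the old arrays and between 50.3% and 55.3% of those of the adult arrays were well above background, with means of 50.9% ± 2.65 (SD, n = 4) and 52.5% ± 2.44 (SD, n = 4), which did not differ beyond their spread (exact 2-sided permutation p = 0.457, with 0.0286 the smallest p of 4 against 4). The arrays carried muscle RNA. Myh4, the myosin of the fastest fibres, lay between 9.10 and 10.06 on all 8, and Pygm, the glycogen phosphorylase of muscle, between 7.98 and 9.03.

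The 4 old arrays differed from each other more than the 4 adult arrays did. Over the 23715 features tested, correlations between pairs of adult arrays lay between 0.982 and 0.991, those between pairs of old arrays between 0.951 and 0.974, and those between an old and an adult array between 0.931 and 0.979. Old array 3 was the nearest to the adults, with a correlation of at least 0.977 to each of them. Each array also received a score for each gene list, the median over the list's measured genes of its log2 signal minus the mean of the adult controls. Old arrays 1 and 2 had T and NK (natural killer) cell scores of 3.27 and 3.06, against 0.78 and 0.00 on old arrays 3 and 4. Old array 4 had a neutrophil and marrow score of 5.41 and a bone and cartilage score of 3.33, and old array 2 a keratinocyte score of 7.77. Among the adults, array 2 had the highest slow-twitch score (1.40), cell division score (1.37) and macrophage score (0.73). The heat map of list scores shows these combinations. For many genes the values of each array are therefore given, and for some lists also the counts without the arrays that stand apart. In whole muscle, fewer cells of a type and less RNA per cell cannot be told apart.

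**Figure D1:**
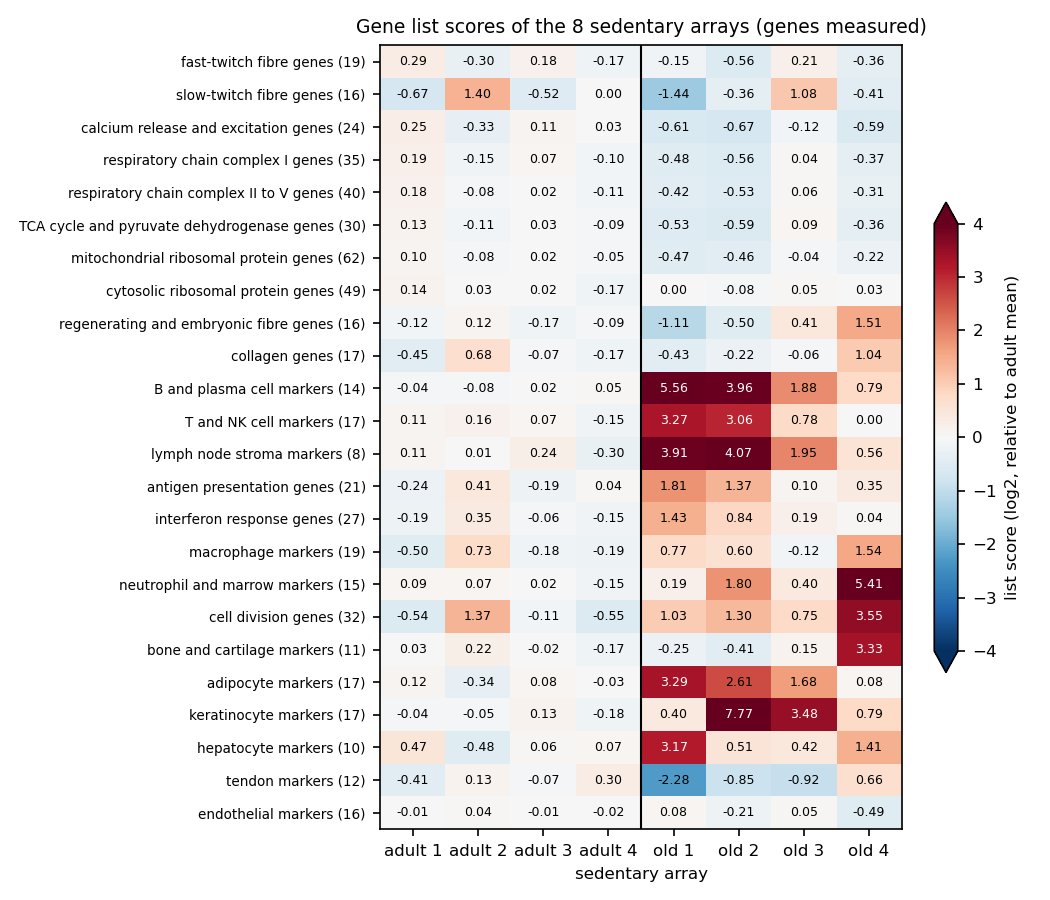
Scores of 24 gene lists (rows, with the number of genes measured) on the 4 adult and 4 old sedentary arrays (columns), in log2 units relative to the adult mean, with the colour scale ending at 4 and -4. The lymphocyte, lymph node and fat lists are highest on old arrays 1 and 2, the keratinocyte list on old array 2, the macrophage, marrow, bone and cell division lists on old array 4, and the energy lists are below 0 on old arrays 1, 2 and 4.

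Between old and adult controls, 3235 features (13.6% of those tested) passed limma's test at a Benjamini-Hochberg adjusted p under 0.05. Of these, 1085 rose (4.58%) and 2150 fell (9.07%) with age, and the median difference over all features was -0.15. The counts of the gene lists below are to be read against these shares. The lowest old value exceeded the highest adult value for 1017 features (4.29%), and the highest old value lay below the lowest adult value for 2614 (11%). Old array 3 had smaller differences than the other old arrays. Features that rose exceeded the adult mean by a median of 0.89 on array 3, against 2.27, 1.97 and 1.34 on arrays 1, 2 and 4, and those that fell lay below it by medians of -0.32 on array 3 and -0.75, -0.78 and -0.68 on the others. The number of calls moved with single arrays. It was 5804 without old array 3, 4563 without adult array 2, 674 and 524 without old array 1 or 2, and 510, 719 and 848 without adult array 1, 3 or 4. In each of the 8 fits that left out 1 sedentary array, 385 of the 3235 were called (198 higher and 187 lower). These fits share most of their arrays, and some genes below were named for passing all 8. Without old arrays 1 and 2 together the number of calls was 24, of which 16 had been called before. In the gene lists below, only 3 regenerating fibre genes and 1 T and NK marker were then called. Every other list had 0, among them the tricarboxylic acid cycle, branched-chain, amino acid stress, chemokine, macrophage, adipocyte and cell division lists. With old arrays 3 and 4 alone precision is lost, so a count of 0 does not show that a difference was absent. The median went from 1.65 to 2.04 for cell division and from 0.63 to 0.66 for macrophages. It went from 1.24 to 0.81 for chemokines, 1.83 to 0.89 for adipocytes, -0.31 to -0.14 for the cycle, -0.34 to -0.27 for branched-chain and -0.17 to 0.03 for amino acid stress genes. When limma was given these 8 arrays alone, with no trained array to help estimate the spread, 40 features were called, all of them among the 3235. An additive model with slide, which takes age from the other groups too, called 0 features (2109 at an unadjusted p under 0.05). This model assumes that training does not change the age difference, and its age term has a larger SE than the direct comparison. Its 0 calls therefore cannot tell an effect of slide from that loss of precision. The plot of calls by setting gives the counts in each direction.

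**Figure D2:**
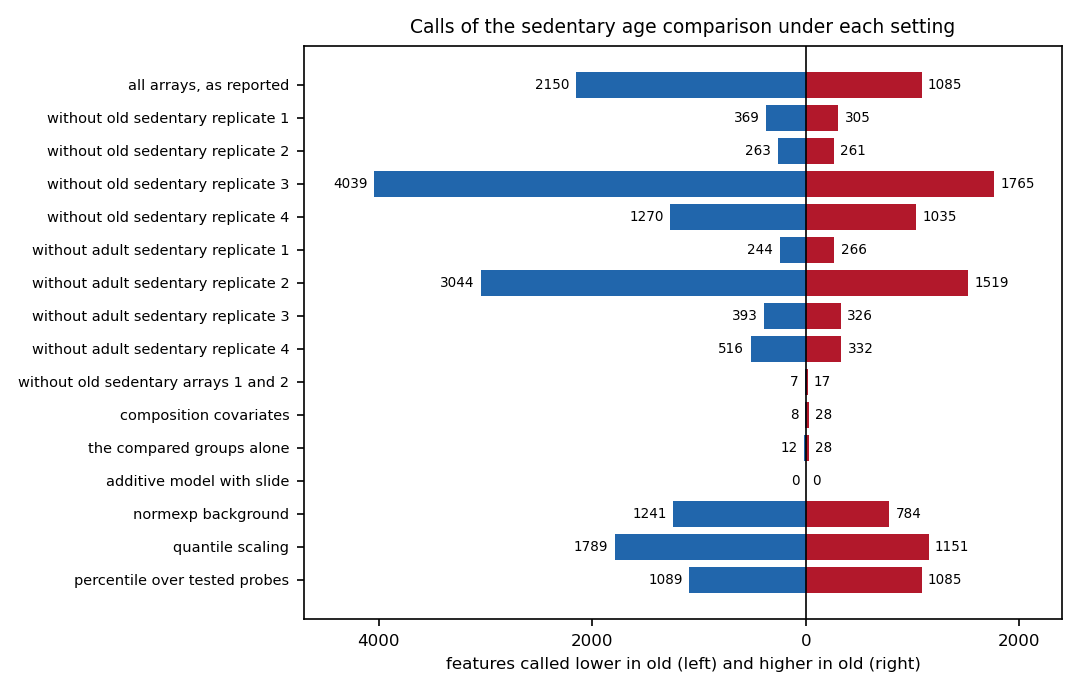
Features called lower (left, blue) and higher (right, red) in old than in adult controls, as reported and with arrays left out or other settings. The counts run from 0 with slide in the model to 4039 lower and 1765 higher without old array 3.

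Immune transcripts, a gut and brain peptide and a serine synthesis enzyme stood out among the genes with the steadiest rises. Of the 40 features called from these 8 arrays alone, 23 had a symbol, 17 higher and 6 lower in old muscle, and 19 of the 23 were called in each of the 8 fits that left out 1 sedentary array. Gzmb encodes granzyme B, a protease that cytotoxic lymphocytes release. It read -2.77, -3.22, -1.80 and -1.997 on old arrays 1 to 4 and -6.24, -6.26, -6.49 and -6.69 on adult arrays 1 to 4, where it was not well above background. The groups did not overlap, the difference was at least 4.20-fold by this bound (means -2.45 and -6.42, limma adjusted p = 0.0014), and the values were highest on the 2 old arrays with the lowest T and NK scores. Il7r, the interleukin-7 receptor of lymphocytes, read 0.04, -0.11, -2.24 and -0.22 on the old arrays and -6.38, -3.90, -5.07 and -6.18 on the adult arrays, of which 1 was above background (4.75 ± 0.68 SE, adjusted p = 0.0018).

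Cck and Ptgds are not immune markers. Cck encodes cholecystokinin, a peptide hormone of gut and brain. Its 4 old values of -1.25, -1.50, -2.18 and -0.70 all exceeded the adult values of -4.27, -4.20, -4.14 and -4.45 (2.86 ± 0.36 SE, adjusted p = 0.0014), and 2 adult arrays were above background. Ptgds, a prostaglandin D synthase, rose by 2.65 ± 0.36 SE (adjusted p = 0.0015), from adult values between -2.75 and -2.54 to old values of 0.78, -0.98, -0.46 and 0.64. Gzmb, Cck, Ptgds and Mab21l3 were also called without old arrays 1 and 2. Mab21l3 was above background on 3 old arrays and on no adult array and was at least 2.28-fold higher (means -3.33 and -6.59, adjusted p = 0.0015).

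Acp5 and Ctsg belong to cells of marrow origin. Acp5, the tartrate-resistant acid phosphatase of osteoclasts and macrophages, read 5.76, 4.73, 3.65 and 4.71 on the old arrays against 1.68, 1.14, 1.77 and 0.92 on the adult arrays (3.34 ± 0.60 SE, adjusted p = 0.0056). Ctsg, the neutrophil granule protease cathepsin G, was at -0.49, -0.70, -1.07 and 1.65 in old and between -4.43 and -3.51 in adult muscle (3.61 ± 0.72 SE, adjusted p = 0.0083). The old values of both genes exceeded all adult values, with Ctsg highest on array 4.

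Among the genes that fell with little spread were Ide, Acad12 and Prss55. Ide encodes insulin-degrading enzyme. It read 3.21, 2.88, 3.22 and 3.25 on the old arrays and 4.29, 3.88, 4.08 and 4.37 on the adult arrays, a difference of -1.01 ± 0.15 SE (adjusted p = 0.0020). Acad12, a mitochondrial acyl-CoA dehydrogenase family member, read 0.79, 0.70, 1.17 and 1.04 against 2.04, 1.67, 1.80 and 1.94 (-0.94 ± 0.17 SE, adjusted p = 0.0064). Prss55, a serine protease known from testis, read -2.32, -2.69, -2.60 and -1.48 against 0.09, -0.53, -0.23 and 0.12 (-2.13 ± 0.36 SE, adjusted p = 0.0042). All 3 had every old value below every adult value. The steady genes that were picked after their values were seen, for being called from the 8 arrays alone, were Ide and Acad12 here, the rises Mgst2 (2.55 ± 0.50 SE), B3gnt5 (3.41 ± 0.63 SE), Prkcz (1.11 ± 0.23 SE) and Tlr12 (at least 6.65-fold), and the fall Baiap2l2 (-1.08 ± 0.21 SE).

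**Figure D3:**
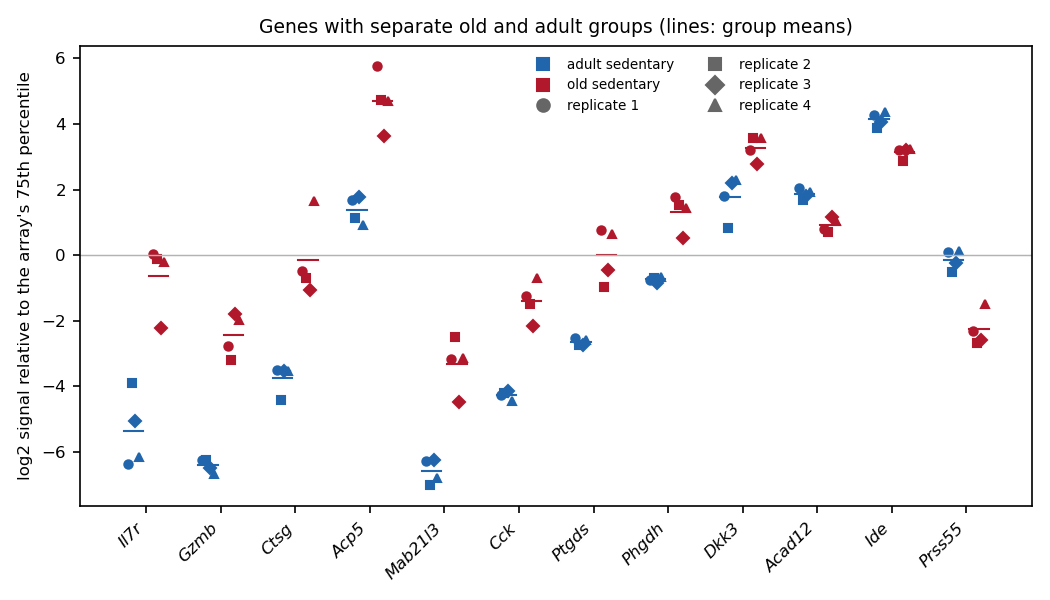
Log2 signal of 12 genes on the 4 adult (blue) and 4 old (red) sedentary arrays, with symbols for replicates 1 to 4 and lines for group means, relative to each array's 75th percentile. The genes were picked for having separate groups, so that by this choice the 4 old points lie on one side of the 4 adult points.

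Genes of calcium release fell in old muscle, among them channel subunits and the calcium pump, whereas most fast-twitch genes were not called. Of 24 measured genes of calcium release and excitation, 10 fell, 0 rose, and all 24 differences were negative, with a median of -0.48 against -0.15 over all features. Cacnb1, the beta subunit of the voltage sensor that triggers calcium release, read 2.31, 2.23, 2.79 and 2.36 on the old arrays and 3.70, 3.06, 3.35 and 3.45 on the adult arrays (-0.97 ± 0.16 SE, adjusted p = 0.0042). The groups did not overlap, and the call held in all 8 fits that left out 1 array. Atp2a1, the fast-fibre calcium pump SERCA1, read 6.44, 6.46, 7.05 and 6.31 against 7.90, 6.80, 7.79 and 7.63 (-0.96 ± 0.24 SE, adjusted p = 0.019), with old array 3 above adult array 2. Cacna2d1, an accessory subunit of the same channel, differed by -0.59 ± 0.15 SE (adjusted p = 0.021). Trdn, triadin, which anchors the store's release channel, differed by -0.68 ± 0.19 SE (adjusted p = 0.026). Both overlapped between the groups through array 3. The list's scores were -0.61, -0.67, -0.12 and -0.59 on the old arrays and 0.25, -0.33, 0.11 and 0.03 on the adult arrays. The count of genes lower in old muscle was 16 without old array 3, 4 without old array 4 and 0 without old arrays 1 and 2, where the median was -0.36.

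The fast-twitch list held 19 measured genes, of which 3 fell (Atp2a1, Ckm and Mylpf) and 0 rose. Ckm, the creatine kinase of muscle, read 7.79, 7.58, 8.14 and 7.09 on the old arrays and 8.76, 7.93, 8.45 and 8.59 on the adult arrays (-0.78 ± 0.22 SE, adjusted p = 0.029). Mylpf, the fast regulatory light chain, differed by -0.65 ± 0.19 SE (adjusted p = 0.031). Both groups overlapped for both genes. The fast myosins were not called: the differences were -0.04 ± 0.25 SE for Myh4, -0.30 ± 0.35 SE for Myh1 and -0.62 ± 0.39 SE for Myh2. Actn3, the fast-fibre alpha-actinin, missed the threshold at -0.56 ± 0.20 SE (adjusted p = 0.066). All 19 differences were negative with a median of -0.30, which was -0.10 with quantile scaling, 0.10 with the scores of lymphocytes, adipocytes and slow fibres as covariates, and 0.03 score units in the deposited value table, whose differences follow the log2 differences with a slope of 0.254. Of 16 slow-twitch genes 0 were called (median -0.21). Their scores ranged from -1.44 to 1.08 on the old and from -0.67 to 1.40 on the adult arrays, and the median was 0.35 without old arrays 1 and 2. Myh7, the slow myosin, differed by -0.12 ± 0.87 SE.

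Among the scaffold of the sarcomere, 5 of 22 measured genes fell and 0 rose (median -0.34, and 0.00 without old arrays 1 and 2). Des, the intermediate filament desmin, was lower on all 4 old arrays, at 5.41, 5.61, 6.13 and 6.01 against 6.30, 6.21, 6.20 and 6.45 (-0.50 ± 0.14 SE, adjusted p = 0.027). With quantile scaling 1 gene of this list fell.

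Genes of respiratory complex I, the tricarboxylic acid cycle and branched-chain amino acid breakdown fell in part. Genes of the other respiratory complexes, of fatty acid use and of glycolysis gave few calls. With slide as a term, and thus under the limits given above for that model, 0 genes of these lists were called. The medians went to -0.13 for complex I, -0.08 for complexes II to V and -0.05 for the cycle. They went to 0.03 for branched-chain amino acids, 0.09 for fatty acids and -0.13 for glycolysis. With the percentile taken over tested probes, 2 complex I, 0 complex II to V, 5 cycle, 2 branched-chain, 1 fatty acid and 0 glycolysis genes fell. Against the adult MICT arrays of the same slide, where 3.05% of all features were lower, the counts were 2, 0, 8, 6, 0 and 0 in the same order. The medians there were -0.34, -0.30, -0.33, -0.43, -0.40 and -0.27. Of 35 measured genes of respiratory complex I, 9 fell and 0 rose, 34 differences were negative, and the median was -0.35. Ndufa7, a complex I subunit, read 6.84, 6.85, 7.19 and 7.07 in old and 7.47, 7.28, 7.44 and 7.39 in adult muscle (-0.41 ± 0.09 SE, adjusted p = 0.011). Its groups did not overlap, and it was called in all 8 fits without 1 array. Ndufs6, which helps to assemble the complex, differed by -0.50 ± 0.13 SE (adjusted p = 0.023), with overlap. Complexes II to V had 5 of 40 genes lower and 0 higher (median -0.29), a share not far above the 9.07% of all features that fell. Cox7c, a subunit of cytochrome oxidase, read 6.30, 6.28, 6.86 and 6.55 against 6.95, 6.92, 6.93 and 6.88 (-0.42 ± 0.12 SE, adjusted p = 0.032). Old array 3 lay just below the adult values and the other old arrays further down. Cox6b1, another subunit, differed by -0.53 ± 0.16 SE (adjusted p = 0.036). The counts moved with old array 3. Its complex I score was 0.04, against -0.48, -0.56 and -0.37 on old arrays 1, 2 and 4, and without it 30 of 35 complex I genes and 24 of 40 genes of the other complexes fell. Without old arrays 1 and 2, 0 of either list did, at medians of -0.18 and -0.12.

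In the tricarboxylic acid cycle and around pyruvate dehydrogenase, 9 of 30 genes fell and 0 rose (median -0.31). Pdk2, a kinase that switches pyruvate dehydrogenase off, read 4.94, 5.10, 5.53 and 5.18 in old and 6.03, 5.55, 5.91 and 6.18 in adult muscle (-0.73 ± 0.16 SE, adjusted p = 0.013), without overlap and called in all 8 fits without 1 array. Suclg2, the GTP-forming subunit of succinyl-CoA ligase, fell by 0.64 ± 0.14 SE (adjusted p = 0.013), and Idh3g, a subunit of the cycle's isocitrate dehydrogenase, by 0.59 ± 0.14 SE (adjusted p = 0.016). Mpc2, part of the carrier that brings pyruvate into mitochondria, differed by -0.45 ± 0.11 SE (adjusted p = 0.018). Cs, citrate synthase, the enzyme that opens the cycle, was not called (-0.17 ± 0.13 SE, adjusted p = 0.39). Pdk4, the kinase of fasting and fat use, read 2.85, 3.83, 4.57 and 3.92 on the old and 6.54, 6.01, 5.11 and 5.39 on the adult arrays. These groups did not overlap, but the spread over the series was wide and the difference of -1.97 ± 0.76 SE missed the threshold (adjusted p = 0.082).

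Branched-chain amino acid breakdown gave 7 of 20 genes lower, 0 higher and all 20 differences negative (median -0.34). Bckdha, a subunit of the dehydrogenase that commits these amino acids to breakdown, read 4.41, 4.55, 5.10 and 4.68 in old and 5.69, 5.20, 5.78 and 5.74 in adult muscle (-0.92 ± 0.21 SE, adjusted p = 0.013). Bckdk, the kinase that inhibits the same dehydrogenase, fell too, from 4.09, 3.72, 4.02 and 4.21 to 3.18, 3.28, 3.62 and 3.34 (-0.65 ± 0.14 SE, adjusted p = 0.012), and it was called in all 8 fits without 1 array. So the enzyme and its inhibitor were both lower, and in both genes every old value lay below every adult value. Fatty acid uptake and oxidation had 2 of 34 genes lower and 0 higher at a median of -0.44, a smaller share than the 9.07% of all features that fell. These were Hadha, of the mitochondrial trifunctional protein (-0.87 ± 0.25 SE, adjusted p = 0.031), and Eci1, which handles unsaturated fats (-0.62 ± 0.19 SE, adjusted p = 0.035). Glycolysis and glycogen, also with a smaller share than all features, had 3 of 35 genes lower and 0 higher (median -0.26, and -0.08 with quantile scaling). Among them was Phkg1, the catalytic subunit of muscle phosphorylase kinase (-0.76 ± 0.24 SE, adjusted p = 0.041). Slc2a4, the insulin-responsive glucose carrier GLUT4, lay at the threshold (-0.39 ± 0.13 SE, adjusted p = 0.051).

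Genes for the upkeep of mitochondria gave a few falls. Of 26 regulators, 4 fell and 0 rose (median -0.31): Fis1 and Opa1, of mitochondrial fission and fusion, and Polg and Twnk, the DNA polymerase and helicase of the mitochondrial genome. Fis1 read 6.14, 6.27, 6.52 and 6.24 in old and 6.84, 6.53, 6.93 and 6.71 in adult muscle (-0.46 ± 0.11 SE, adjusted p = 0.014). Polg read 0.37, 0.40, 0.48 and 0.34 against 0.84, 0.76, 0.98 and 0.95 (-0.49 ± 0.13 SE, adjusted p = 0.025), with all 4 old values below all adult values. Ppargc1a, the coactivator PGC-1 alpha, was not called (-0.44 ± 0.20 SE, adjusted p = 0.13). Mitochondrial ribosomal proteins had 13 of 62 genes lower, 0 higher and all 62 differences negative (median -0.28). With the percentile over tested probes or with quantile scaling 5 fell, and the median was -0.01 with slide as a term and -0.10 with covariates. For the 26 regulators the median with slide was -0.05. Mrps18a, a protein of the mitochondrial ribosome, was at 3.99, 4.17, 4.53 and 4.45 in old and 4.69, 4.65, 4.80 and 4.84 in adult muscle (-0.46 ± 0.11 SE, adjusted p = 0.017). Cytosolic ribosomal proteins stood at a median of 0.01, which turned to -0.02 when arrays were centred on the median of the tested features. Of 49, 1 fell (Rpl26, -0.23 ± 0.07 SE, adjusted p = 0.033) and 0 rose, and with quantile scaling 0 fell and 7 rose. The plot of muscle, energy and protein lists shows each gene.

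**Figure D4:**
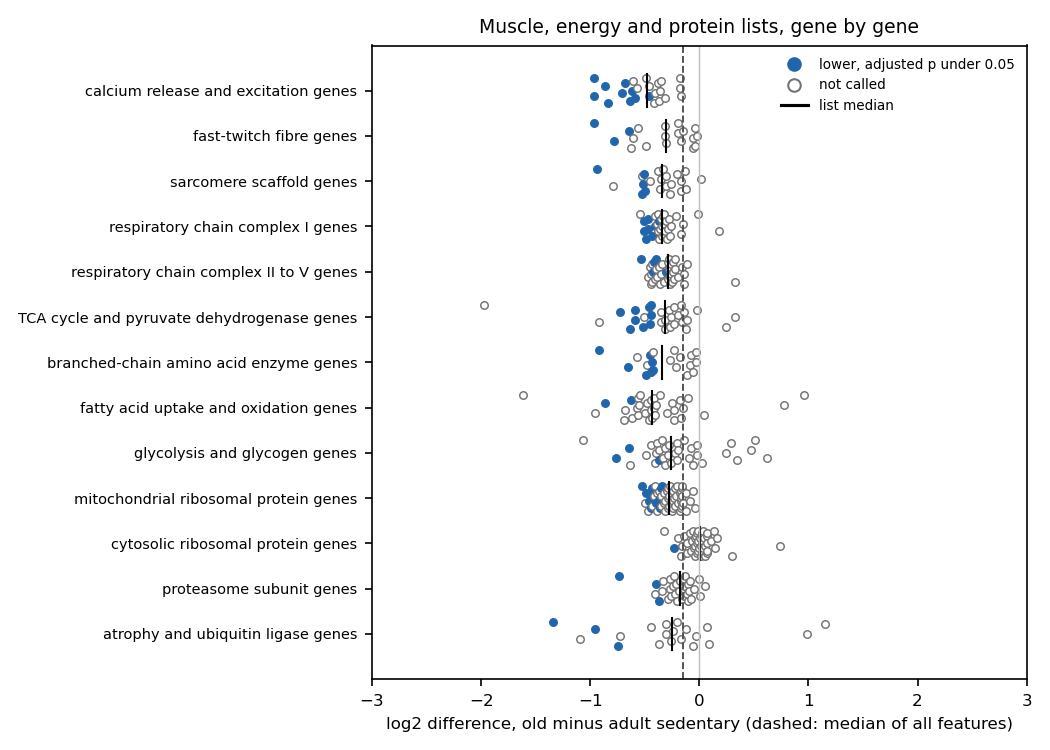
Log2 difference, old minus adult sedentary, of each measured gene of 13 lists, filled where it was called, with the median of each list (black line) and of all features (dashed line, -0.15). The medians of the calcium, energy and mitochondrial ribosome lists lie left of the dashed line, and that of the cytosolic ribosomal proteins lies near 0.

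Lists of protein turnover gave few calls. Proteasome subunits had 3 of 33 genes lower and 0 higher (median -0.18), among them Psme4, an activator of the proteasome (-0.73 ± 0.22 SE, adjusted p = 0.034). Autophagy and lysosome genes had 5 lower and 2 higher of 31. Tfeb, the main activator of lysosome genes, was lower on all 4 old arrays at 0.97, 0.93, 1.34 and 1.29 against 1.82, 1.44, 1.60 and 2.22 (-0.64 ± 0.19 SE, adjusted p = 0.031), and one of the rises was Ctss, a lysosomal protease of macrophages (1.79 ± 0.49 SE, adjusted p = 0.026). Heat shock and folding genes had 3 of 29 lower and 0 higher (median -0.16, and 0.01 with quantile scaling), with Hsf1, the heat shock factor, at -0.60 ± 0.15 SE (adjusted p = 0.021). Antioxidant genes had 4 of 32 lower and 0 higher (median -0.24). Prdx3, the mitochondrial peroxiredoxin, read 4.47, 4.39, 4.80 and 4.70 in old and 5.10, 4.99, 5.09 and 5.12 in adult muscle (-0.49 ± 0.10 SE, adjusted p = 0.010). Gstp1, a glutathione transferase, fell by 0.67 ± 0.14 SE (adjusted p = 0.0089). Neither gene overlapped between the groups, and both were called in all 8 fits without 1 array.

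The atrophy list did not rise as a group. Of 20 genes, 3 fell and 0 rose (median -0.25): Foxo4 and Foxo6, transcription factors of the FOXO family, and Fbxo40, a muscle ubiquitin ligase. Foxo6 read 0.32, 1.24, 2.01 and 1.87 in old and 2.73, 2.50, 2.82 and 2.79 in adult muscle (-1.35 ± 0.40 SE, adjusted p = 0.033), and Foxo4 was lower by -0.95 ± 0.23 SE (adjusted p = 0.018). The ligases best known from wasting muscle were not called. Fbxo32 (atrogin-1) read 2.74, 2.97, 3.12 and 2.64 against 4.51, 3.65, 3.77 and 3.91, with no overlap (-1.09 ± 0.62 SE, adjusted p = 0.22), and Trim63 (MuRF1) differed by -0.73 ± 0.64 SE (adjusted p = 0.44). Mstn, myostatin, which restrains muscle growth, differed by -0.42 ± 0.44 SE (adjusted p = 0.51). Of 35 genes of the growth factor and myostatin pathways, 2 rose and 1 fell. Id2, a target of bone morphogenetic protein signals, read 2.15, 1.81, 0.56 and 1.86 in old and -0.02, 0.76, -0.96 and -0.08 in adult muscle (1.67 ± 0.36 SE, adjusted p = 0.010). Akt2, the insulin-signalling kinase, differed by -0.48 ± 0.15 SE (adjusted p = 0.041).

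Amino acid stress genes held some of the clearest rises. Of 23 measured genes of polyamine metabolism and amino acid stress, 5 rose and 0 fell, while the median was -0.17. Without old arrays 1 and 2, 0 of them were called. Phgdh, the enzyme that opens serine synthesis, read 1.77, 1.53, 0.53 and 1.45 in old and -0.75, -0.70, -0.86 and -0.66 in adult muscle (2.06 ± 0.37 SE, adjusted p = 0.0056), and it was among the genes called from the 8 arrays alone. Psat1, the next enzyme of that pathway, read 1.12, 1.51, 0.63 and 2.01 against -1.35, 1.13, -0.81 and -1.17 (1.87 ± 0.46 SE, adjusted p = 0.018), with overlap through adult array 2. Asns, asparagine synthetase, rose by 1.53 ± 0.38 SE (adjusted p = 0.019), and Gdf15, a stress hormone of the TGF-beta family, by 1.54 ± 0.43 SE (adjusted p = 0.028), the latter from adult values between -3.99 and -3.23 to old values between -2.51 and -1.75. Phgdh was lowest on old array 3 and highest on old array 1. On old arrays 1 to 4 the T and NK scores were 3.27, 3.06, 0.78 and 0.00. The neutrophil and marrow scores were 0.19, 1.80, 0.40 and 5.41 in the same order. With the lymphocyte, adipocyte and slow fibre scores as covariates, the difference of Phgdh was 1.498 and was not called (adjusted p = 0.069). The lymphocyte and adipocyte scores were mostly higher on the old arrays, so this fit cannot separate them from age. The part of marrow cells was not tested. Sms, spermine synthase, read 0.42, 4.18, 4.77 and 4.24 on the old and between 4.43 and 5.13 on the adult arrays, and its difference of -1.49 ± 0.58 SE was not called (adjusted p = 0.085). In the senescence list, 1 of 28 genes rose (Gdf15) and 1 fell (Cdkn1b, the cell cycle inhibitor p27, -0.44 ± 0.11 SE, adjusted p = 0.023). Cdkn1a, the inhibitor p21, read 1.499, 1.58, 1.39 and 3.04 against 0.18, 0.99, 0.05 and 0.98 and was not called (1.33 ± 0.66 SE, adjusted p = 0.16). Cdkn2a, the p16 locus, differed by -0.24 ± 0.52 SE (adjusted p = 0.78).

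Genes of fibre regeneration separated the old arrays from each other rather than from the adults. Myh3, the embryonic myosin, read -1.17, 1.48, 4.02 and 5.84 on old arrays 1 to 4 and -0.15, 2.38, -0.85 and 0.02 on the adult arrays. Mymx, which lets muscle precursors fuse, read -6.27, -1.68, 1.40 and 4.46 against -6.26, -0.47, -4.41 and -5.15, and Myog, the myogenin of differentiating muscle, -1.56, -0.67, 1.08 and 3.77 against -1.01, 1.11, -0.57 and -0.75. For each of these genes old array 4 lay above the adults and old arrays 1 and 2 lay within the adult range or below it. Old array 3 lay above the adults for Myh3 and Mymx and just under adult array 2 for Myog, and none was called (adjusted p = 0.15, 0.11 and 0.39). The list's scores were -1.11, -0.50, 0.41 and 1.51 on the old arrays. As reported, 1 of its 16 genes fell (Myf6, a factor of mature fibres, -0.66 ± 0.18 SE, adjusted p = 0.027) and 0 rose, while without old arrays 1 and 2, 3 rose and 0 fell and the median went from -0.09 to 0.91. With scores of lymphocytes, adipocytes and slow fibres as covariates, 7 rose. Chrna1, the acetylcholine receptor subunit that denervated fibres make, read 2.04, 1.60, 3.54 and 5.00 on the old and between 2.71 and 3.34 on the adult arrays, so that old arrays 3 and 4 lay above the adults and old arrays 1 and 2 below them. Chrng, the embryonic receptor subunit, was above background on 1 old and no adult array.

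In the denervation list, 1 of 25 genes rose, Dkk3, a secreted Wnt pathway protein. It read 3.19, 3.57, 2.78 and 3.58 in old and 1.79, 0.82, 2.21 and 2.29 in adult muscle (1.504 ± 0.28 SE, adjusted p = 0.0067), without overlap and called in all 8 fits without 1 array. Musk, the kinase that organises the neuromuscular junction, differed by -0.15 ± 0.41 SE. The list's median was -0.06 and turned to 0.04 with quantile scaling. Of 17 satellite cell genes, 2 rose. Vcam1, an adhesion molecule of satellite cells and of activated vessels, read 2.07, 1.15, 0.04 and 0.99 against -0.59, -0.21, -0.15 and -0.48 (1.42 ± 0.30 SE, adjusted p = 0.010), and was highest on old array 1.

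Connective tissue and vessels gave few calls. Of 17 collagen genes, 0 were called (median 0.09, and -0.25 without old array 4). Col1a1 read 3.76, 4.41, 4.44 and 6.53 on the old and 3.59, 5.62, 4.69 and 3.92 on the adult arrays, and Col3a1 4.50, 4.89, 5.27 and 6.95 against 4.15, 6.34, 4.86 and 4.35. Both were highest on old array 4 and adult array 2. Of 36 matrix genes, 2 fell and 0 rose, and both modify collagen: P4ha1, a prolyl hydroxylase subunit (-0.81 ± 0.19 SE, adjusted p = 0.014), and Plod1, a lysyl hydroxylase, which read -2.54, -2.12, -1.90 and -1.98 against -1.62, -1.62, -1.62 and -1.58 (-0.53 ± 0.16 SE, adjusted p = 0.035). Tie1, a receptor of vessel lining, was the 1 of 21 vascular growth genes that fell (-0.54 ± 0.16 SE, adjusted p = 0.031). Of 12 tendon markers, 16 fibroblast markers and 6 lymphatic markers, 0 were called in any direction, although all 12 tendon differences were negative (median -0.92, and -0.11 without old arrays 1 and 2). Kera, keratocan, of tendon matrix, read -3.94, -1.49, -2.001 and -0.01 against 0.02, -0.46, 0.06 and 0.92 (-1.99 ± 0.71 SE, adjusted p = 0.063). Of 18 clock genes 0 were called. Arntl, the core activator BMAL1, read 0.74, 0.91, 1.17 and 0.84 in old and 2.59, 1.86, 1.46 and 2.05 in adult muscle, without overlap (-1.08 ± 0.40 SE, adjusted p = 0.071).

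Many B cell and T cell markers rose, and the scores of both lists were highest on old arrays 1 and 2. Of 14 measured B and plasma cell markers, 9 rose and 0 fell (median 2.98). Their scores were 5.56, 3.96, 1.88 and 0.79 on the old arrays and -0.04, -0.08, 0.02 and 0.05 on the adult arrays. Ms4a1 (CD20), the surface protein of B cells, read 2.83, 1.23, -1.10 and -3.13 on the old arrays and was not well above background on any adult array (at least 22.3-fold, means -0.04 and -5.77, adjusted p = 0.0056). Spib and Pou2af1, B cell transcription regulators, were at least 15.2-fold and at least 15.6-fold higher (adjusted p = 0.0026 for both), and Fcmr, the IgM receptor, at least 31.2-fold (adjusted p = 0.0056). Each of these 4 genes was highest on old array 1 and lowest on old array 4, and every old value exceeded every adult value. Cr2, a complement receptor of B cells and lymph node stroma, read 2.36, 0.89, -1.34 and -3.27 against adult values between -4.16 and -3.41, so that old array 4 was just above the adults (3.43 ± 0.81 SE, adjusted p = 0.016).

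Of 17 T and NK markers, 9 rose, 8 were not called and 5 had a negative difference (median 1.78). Cd3d, of the T cell receptor complex, read 1.16, 1.08, -1.78 and -4.05 on the old arrays and was not well above background on the adult arrays (at least 12.3-fold, adjusted p = 0.0077). Cd3g, of the same complex, read 0.87, 0.62, -1.96 and -4.10 against values between -6.96 and -4.70 (4.70 ± 0.92 SE, adjusted p = 0.0077). Cd4 was not called (-0.41 ± 0.19 SE, adjusted p = 0.14). Lymph node stroma markers had 4 of 8 genes higher (scores 3.91, 4.07, 1.95 and 0.56). Glycam1, made by the high vessels through which lymphocytes enter lymph nodes, read 1.14, -1.24, -4.03 and -4.34 on the old arrays and was above background on 3 of them and on no adult array (at least 5.28-fold, adjusted p = 0.015). Ltb, lymphotoxin beta, which organises lymphoid tissue, read 4.31, 3.21, 0.58 and -0.58 against -2.21, -1.73, -2.66 and -2.63 (4.18 ± 0.81 SE, adjusted p = 0.0077). Lymphocyte and lymph node markers thus lay highest on the same old arrays. The 2 sets are not separate, since Cr2 belongs to both the B cell and the lymph node list. Without old arrays 1 and 2, 0 B cell and 0 lymph node markers were called, at medians of 1.31 and 1.14, and 1 T and NK marker was, Gzmb, at a median of 0.59.

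Other immune lists rose in part. Chemokines and cytokines had 9 of 33 genes higher and 0 lower. Ccl5, which draws T cells, read 4.30, 3.81, 1.63 and 0.35 against -1.54, -1.06, -1.85 and -1.95 (4.12 ± 0.72 SE, adjusted p = 0.0056), and Ccr7, the receptor that guides cells to lymph nodes, read 1.63, 1.32, -0.70 and -1.40 against values between -4.85 and -2.86 (3.89 ± 0.70 SE, adjusted p = 0.0056). Antigen presentation had 3 of 21 genes higher. H2-Oa, a chaperone of class II loading in B cells, rose by 3.71 ± 0.89 SE (adjusted p = 0.017). H2-K1, the class I molecule of nearly all cells, read 6.87, 6.41, 5.27 and 5.42 against 4.80, 5.32, 4.97 and 5.19 (0.92 ± 0.29 SE, adjusted p = 0.043). The class I gene was high on arrays 1 and 2 and within or near the adult range on 3 and 4. Interferon response had 2 of 27 genes higher, Ifi27l2a (1.82 ± 0.58 SE, adjusted p = 0.043) and Dhx58, a sensor of viral RNA (1.12 ± 0.34 SE, adjusted p = 0.037), and 26 of 27 differences were positive (median 0.59, and 0.08 without old arrays 1 and 2). With scores of lymphocytes, adipocytes and slow fibres as covariates, 0 genes of the interferon, antigen presentation, complement and chemokine lists were called. This fit called 36 features in all. The lymphocyte and adipocyte scores were themselves mostly higher on the old arrays, so this fit cannot separate them from age. The part of lymphocytes in the rises of these 4 lists was not tested. Their medians went from 0.59 to -0.17, from 0.92 to 0.12, from 0.49 to -0.01 and from 1.24 to 0.78.

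Macrophage markers rose most on old array 4. Of 19, 4 rose and 0 fell, and all 19 differences were positive (median 0.63). Lgals3, galectin-3, a macrophage lectin, read 4.15, 5.69, 4.35 and 6.74 in old and 1.89, 4.18, 2.40 and 2.12 in adult muscle (2.59 ± 0.56 SE, adjusted p = 0.010), with adult array 2 inside the old range. Itgax (CD11c), of dendritic cells and some macrophages, read 0.17, -0.46, -0.79 and 2.44 against -3.11, -1.18, -2.77 and -3.03 (2.86 ± 0.61 SE, adjusted p = 0.010). Marco, a scavenger receptor of macrophages in lymph nodes and spleen, followed the lymphocytes instead, at 4.72, 4.25, 1.35 and -1.66 against values between -4.01 and -3.50 (5.96 ± 0.99 SE, adjusted p = 0.0042). Timd4, a receptor of resident macrophages, read 0.67, 0.50, -2.17 and -2.65 against values between -3.28 and -2.45 (1.88 ± 0.55 SE, adjusted p = 0.033). So macrophage genes moved in more than 1 pattern over the 4 old arrays. Of 15 neutrophil and marrow markers 1 rose, Ctsg, although their median was 2.02, with scores of 0.19, 1.80, 0.40 and 5.41 on the old arrays.

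Markers of tissues around the muscle also differed among the old arrays. Adipocyte markers had 5 of 17 genes higher and 0 lower (scores 3.29, 2.61, 1.68 and 0.08). Adipoq, the fat hormone adiponectin, read 5.53, 5.02, 3.89 and 2.25 against 1.88, 0.97, 1.95 and 1.84 (2.51 ± 0.76 SE, adjusted p = 0.036). Plin1, the coat protein of fat droplets, read 3.80, 2.74, 1.75 and 0.11 against -0.43, -1.19, -1.12 and -0.68 (2.95 ± 0.81 SE, adjusted p = 0.026), and Lep, leptin, rose by 3.66 ± 1.02 SE (adjusted p = 0.028). Against the adult MICT arrays of the same slide these 3 were not called, at 0.93, 1.17 and 0.89. Of 17 keratinocyte markers 1 rose, Lor, loricrin of the outer skin, at -1.65, 7.83, 4.01 and 1.14 against values between -4.83 and -4.09 (7.36 ± 2.24 SE, adjusted p = 0.037). Of 11 bone markers 2 rose, Acp5 and Bglap2, an osteocalcin gene of bone-forming cells, which read -5.17, 0.36, -3.41 and 3.88 and was above background on 3 old arrays and on no adult array (at least 10.8-fold, adjusted p = 0.018). Bglap2 has a near-identical neighbour gene, and probes may read both. Hepatocyte markers had 2 of 10 higher: Alb, serum albumin, at -0.35, -1.92, -3.05 and -2.04 against values between -4.90 and -3.45 (2.27 ± 0.64 SE, adjusted p = 0.029), and Serpina1a, an antitrypsin gene with several close copies (2.22 ± 0.47 SE, adjusted p = 0.010). Of 6 erythroid markers 1 fell, Alas2, the first enzyme of haem synthesis in red cells (-0.64 ± 0.20 SE, adjusted p = 0.044). Neuronal markers had 2 of 10 higher, among them Nefh, a neurofilament (at least 1.93-fold, adjusted p = 0.014), which was above background on 2 old arrays and no adult array. Complement genes had 2 of 19 higher, dendritic cell markers 3 of 8, mast cell markers 1 of 8, Schwann cell markers 1 of 18 and immediate early genes 1 of 24, with 0 lower in each. Endothelial markers had 1 of 16 lower and smooth muscle markers 1 of 14 lower, with 0 higher.

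Cell division genes rose in number, with high values on old array 4 and adult array 2. Of 32 measured, 16 rose and 0 fell (median 1.65). Mki67, the marker of dividing cells, read 0.49, 0.98, 0.13 and 2.64 in old and -3.37, 0.43, -1.68 and -3.17 in adult muscle (3.01 ± 0.72 SE, adjusted p = 0.017). Ccnb1, the cyclin of mitosis, read -2.71, -1.68, -2.70 and 0.30 against -6.28, -2.14, -5.46 and -6.48, of which only adult array 2 was above background (3.39 ± 0.87 SE, adjusted p = 0.021). Adult array 2 lay inside the old range for both genes. The scores were 1.03, 1.30, 0.75 and 3.55 on the old arrays and -0.54, 1.37, -0.11 and -0.55 on the adult arrays. The count was 2 without old array 4, the array with the highest marrow and bone scores. It was 22 without old array 3. Without old arrays 1 and 2 it was 0, although the median was then 2.04. The part of marrow cells in these rises was not tested.

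The falls reached across bright and dim probes, and were most frequent among features the array names only by a genome interval, compared with the 4 other kinds of feature. Of 2906 such features, 455 fell (15.7%) and 32 rose (1.10%), with a median of -0.40. Of 15214 RefSeq mRNA features 1189 fell (7.82%) and 841 rose (5.53%). When features were split into 4 bins by mean signal, 711 of the 5929 brightest fell and 88 rose, and of the 5929 dimmest 392 fell and 429 rose. Of the 2150 falls, 230 were not above background on any old array. Named genes with such falls were Krt82, a hair keratin, at -4.49, -4.95, -3.90 and -6.31 against -2.64, -3.30, -2.79 and -3.27 (at least 2.37-fold lower, adjusted p = 0.0080), and Adam7, a protein known from the epididymis (at least 1.24-fold lower, adjusted p = 0.011). S100a5, a calcium-binding protein, was above background on 2 old and 4 adult arrays (-1.93 ± 0.39 SE, adjusted p = 0.0085). Slc15a2, a carrier of small peptides, read -2.95, -2.77, -1.76 and -1.46 against 0.74, -0.37, -0.23 and 0.01 (-2.27 ± 0.75 SE, adjusted p = 0.048). The falls of Krt82 and Adam7 were not called with normexp background correction, and those of S100a5 and Pdk2 were.

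The age difference was also measured in trained mice, whose arrays did not enter the sedentary difference but did enter the estimate of its variance, and so its calls. It was called for 6 features under HIIT (0.0253%, 5 higher and 1 lower) and 5 under MICT (0.0211%, 3 higher and 2 lower, 0.00843%), at 3000 and 3760 with an unadjusted p under 0.05. No feature was called in all 3 comparisons. Of 11 features called under HIIT or MICT, 10 were called in the same direction in sedentary mice. Among features that rose in sedentary mice, 90.4% had a positive difference under HIIT, against 46.6% of all features, and 63.9% under MICT, against 58.0%. Among those that fell, 79.8% were negative under HIIT against 53.4% of all, and 49.2% under MICT against 42.0%. The old trained arrays lay on slide 3, the adult HIIT arrays on slide 1 with the adult controls, and the adult MICT arrays on slide 2 with the old controls. The shares are a description, since genes are not independent of each other.

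Ide was lower in old muscle in each regimen. It read 3.45, 3.63, 3.04 and 3.11 on old and 4.34, 3.97, 3.98 and 3.92 on adult HIIT arrays (-0.75 ± 0.15 SE, adjusted p = 0.070), and 3.38, 3.47, 3.21 and 3.29 on old and 4.02, 4.28 and 4.52 on adult MICT arrays (-0.94 ± 0.16 SE, adjusted p = 0.045). All 12 old values of the 3 regimens lay between 2.88 and 3.63 and all 11 adult values between 3.88 and 4.52. Fgfbp3, a carrier of fibroblast growth factors, differed by -1.01 ± 0.20 SE in sedentary mice (adjusted p = 0.0080), by -0.75 ± 0.20 SE under HIIT (adjusted p = 0.15) and by -1.30 ± 0.22 SE under MICT (adjusted p = 0.045). Naa20, the catalytic subunit of an N-terminal acetyltransferase, differed by -0.32 ± 0.10, -0.59 ± 0.10 and -0.25 ± 0.11 SE in the same order, and was called in sedentary and HIIT mice. Cracdl rose by 1.46 ± 0.38 SE in sedentary mice (adjusted p = 0.022) and 2.60 ± 0.41 SE under MICT (adjusted p = 0.036). Rhpn2, a partner of the GTPase RhoB, was called under MICT alone (1.77 ± 0.30 SE, adjusted p = 0.045), at 0.63 ± 0.28 SE in sedentary mice. Jchain, which joins secreted antibody chains, rose by 4.78 ± 0.83 SE in sedentary mice and 4.77 ± 0.83 SE under HIIT (adjusted p = 0.0056 and 0.045), and differed by 1.46 ± 0.90 SE under MICT (adjusted p = 0.44). The genes of this paragraph other than Jchain were picked after their values were seen, Ide for being called both from the 8 sedentary arrays alone and under MICT, and the others for being called in a trained comparison.

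**Figure D5:**
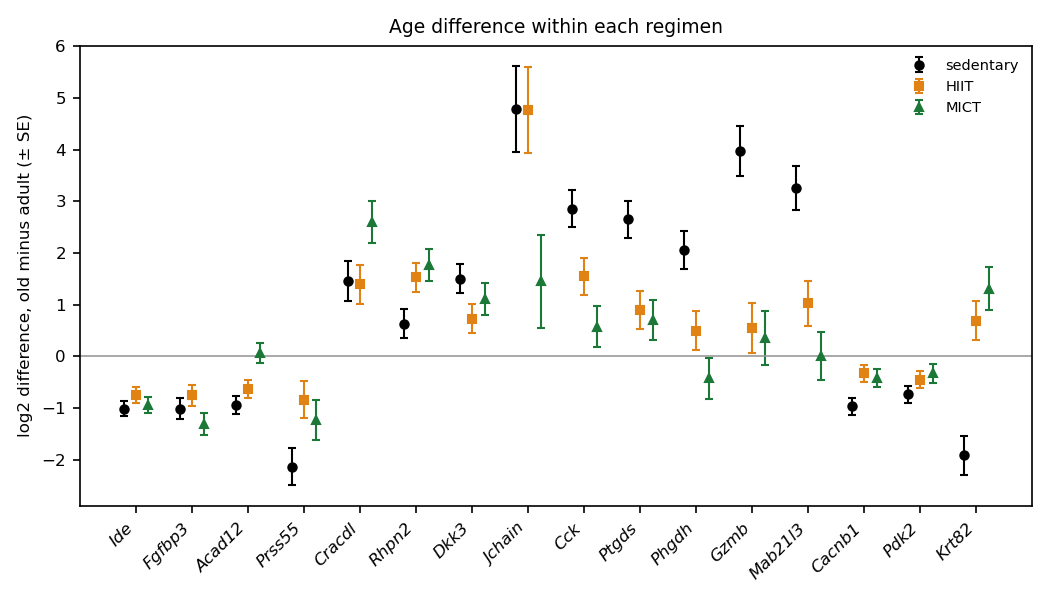
Log2 difference, old minus adult, with limma's SE, of 16 genes in sedentary (black), HIIT (orange) and MICT (green) mice. Ide, Fgfbp3 and Prss55 lie below 0 and Cracdl, Rhpn2 and Dkk3 above 0 in each regimen, whereas Gzmb, Mab21l3 and Krt82 differ from sedentary mice under MICT, with fitted sedentary values of these 3 that rest on a group not above background.

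Whether the age difference itself changed with training was tested next. Between HIIT and sedentary mice 0 features passed limma's test (0%). Before adjustment 2697 had a p under 0.05, and the lowest adjusted p was 0.0685. Between MICT and sedentary mice 158 passed (0.666%). Of these, 138 had a higher and 20 (0.0843%) a lower difference under MICT, and 146 lay below the median mean signal of all features. The 158 held 109 of the features that fell in sedentary old muscle, which were 9.07% of all features. Since the test subtracts the sedentary difference, a sedentary fall by itself favours a higher value. These counts are therefore no measure of a reversal under MICT. Phgdh differed by -0.42 ± 0.40 SE under MICT, a change of -2.48 ± 0.54 SE (adjusted p = 0.041). Krt82 differed by 1.31 ± 0.41 SE under MICT, and Gzmb by 0.36 ± 0.52 SE. The change of these 2 from the sedentary difference also passed (adjusted p = 0.019 and 0.032), but has no measured size, since 1 sedentary group of each was not above background on any array. With normexp background 0 features passed. The old MICT arrays lay on slide 3 and the other arrays of this test on slides 1 and 2, so that regimen and slide cannot be told apart.

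The only adult arrays on the slide of the old controls were the 3 adult MICT arrays. Old controls against these gave 1517 calls (6.4%), 794 higher (3.35%) and 723 lower (3.05%), in a comparison that differs in training as well as age and shares the old control arrays. Against these arrays the difference was -1.13 for Ide (adjusted p = 0.0032), 2.72 for Cck (adjusted p = 0.0034), 2.56 for Ptgds (adjusted p = 0.0037), -0.84 for Cacnb1 (adjusted p = 0.013), -0.87 for Pdk2 (adjusted p = 0.012), -0.73 for Bckdk (adjusted p = 0.015) and 1.39 for Phgdh (adjusted p = 0.043), which differed by 2.06 from adult controls. Of the 3235 features called against adult controls, 1227 were called in the same direction there, 644 of the 1085 rises and 583 of the 2150 falls. Most falls were thus not called there. Among the calls lost, Prss55 differed by -1.18 (adjusted p = 0.067), Gdf15 by 1.44 (adjusted p = 0.064), Cox6b1 by -0.46 (adjusted p = 0.10) and Foxo6 by -0.32 (adjusted p = 0.66). Pdk4 and Arntl, not called against adult controls, were called against adult MICT at -2.79 (adjusted p = 0.047) and -1.61 (adjusted p = 0.034).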

How the data were processed

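RNA of 23 gastrocnemius samples was read on 1-colour Agilent arrays on 3 slides. The deposited scanner files hold each spot's intensity, with background subtracted and spatial trends removed within the array, per the file headers. A deposited table of values, in an unstated unit treated as a score, follows log10 of the processed signal, centred and scaled within each array and rounded (column medians -0.4 to -0.2), and how it was made is not given in the sources used here. It served as an alternative.

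Control spots were left out. The log2 of the processed signal minus the array's 75th percentile was used, probes well above background on at least 3 arrays were kept, and the brightest probe stood for a gene, which left 23715 features, 15472 with a symbol. Symbols came from RefSeq accessions. limma 3.58.1 in R 4.3.3 was fitted to the 6 group means over all 23 arrays with a trended variance, 2-sided, with Benjamini-Hochberg adjustment over all features (threshold 0.05). The script was tested on simulated data. Where 1 group had no array above background, a bound is given: the brighter group's mean against, per dim array, the higher of the lowest signal well above background and the probe's own.

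Alternatives were normexp background (offset 50), quantile scaling, other filters and percentiles, slide or replicate as a term, array weights, covariates, left-out arrays and the deposited table. The settings with the percentile over tested probes, the median of tested features, and without old array 4 and adult array 2 were chosen after seeing the data. The groups, gene lists and tests were chosen with earlier results of these data known. The genes named were the 12 largest rises and falls without overlap, the 12 largest each way called in all 8 fits without 1 array, those called without old arrays 1 and 2, up to 4 called and 2 uncalled members of each list by smallest p, those called in all 3 age comparisons (0), and 30 muscle genes. The text gives a part of these, and names others as picked after their values were seen. Some genes are not reported here.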

Additional observations from a re-analysis of the deposited data

Results flagged for a closer look

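In 21 of 382 groups of 4 arrays, 1 array stood apart from the other 3 by Dixon's test, 10 among old and 11 among adult controls, and chance gives about 1 in 20. Old array 3 stood above the other old arrays for Trdn (0.466) and Mylpf (3.68) and for the calcium release score (-0.121) and atrophy score (-0.0279), and below them for Il7r (-2.24). Old array 4 stood above the others for Cdkn1a (3.04) and the bone and cartilage score (3.33), and below them for Tie1 (-0.181). Old array 2 was low for Ide (2.88) and old array 1 for Sms (0.424). Adult array 2 was low for Ctsg (-4.43), Bckdha (5.20), Gstp1 (4.42), Adipoq (0.974) and the circadian clock score (-0.315). It was high for Rpl3 (5.48), Ctss (4.53), the vascular growth score (0.184) and the chemokine and cytokine score (0.632). Adult array 4 was high for Plod1 (-1.58), and adult array 3 low for Alas2 (0.967).

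The age difference differed between MICT and sedentary mice for 158 features by limma's interaction test. The change was 3.30 for 4930463O16Rik and 3.23 for Krt82. It was -1.61 for Blnk, -3.61 for Gzmb, -3.25 for Mab21l3, -4.11 for Myb, -2.48 for Phgdh, -2.74 for Ralgps2 and -2.15 for Sema4b. For 4930463O16Rik, Krt82, Gzmb and Mab21l3 these are fitted values with no measured size, since 1 sedentary group of each was not above background on any array. With normexp background 0 of the 158 passed. Blnk, Myb, Ralgps2 and Sema4b were picked after their values were seen.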

How the results depend on the processing

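For the sedentary age comparison, 3235 features were called as reported, against 2025 with normexp background, 40 from the 8 arrays alone, 7653 with array weights, 0 with slide as a term, 36 with lymphocyte, adipocyte and slow-fibre scores as covariates and 24 without old arrays 1 and 2. Leaving out 1 array gave 510 to 5804. With the percentile taken over tested probes, chosen after seeing the data, 1085 features rose and 1089 fell (49.9% higher, against 33.5% as reported), and the median difference was -0.07. Under HIIT 6 calls became 13 with normexp and 13 with quantile scaling (0 to 5 without 1 array). Under MICT 5 became 0 with normexp, 8 with quantile scaling and 0 without a filter (0 to 480 without 1 array). On the same slide 1517 became 849 with normexp, 993 without a filter, 730 with the replicate block and 0 from the compared groups alone, and 37 to 3697 without 1 array. The HIIT change in the age difference had 0 calls, 2 with a stricter filter, 1 with the replicate block and 0 to 3 without 1 array. The MICT change had 158 calls, 0 with normexp, 253 with quantile scaling, 44 without a filter and 14 to 2046 without 1 array. The difference in spots above background ranged from -2.44 to -0.350 without 1 array. With slide as a term, the difference turned for Myb (-0.054), Naa20 (0.0174), Pou5f2 (-0.481) and Eci1 (0.0427), and with covariates for Timd4 (-0.214). The cause was not tested. Deviations from the group mean on same-numbered old and adult arrays had correlations of 0.105, 0.0893, 0.111 and -0.0181. Old arrays 1 and 2 correlated best with the adult array of their own number, and old arrays 3 and 4 did not. These low values gave no ground to treat the arrays as pairs, but cannot show that they are unpaired. A replicate block gave 3337 calls in the sedentary comparison.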
